A study of Mus musculus with 6 samples.

Results

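The inhibitor of DNA binding genes Id1, Id2, Id3 and Id4, the bone morphogenetic protein (BMP) receptor genes Bmpr1a, Bmpr1b and Bmpr2 and the BMP genes Bmp2, Bmp4 and Bmp7 were examined in RNA-seq of cells sorted from the mouse olfactory bulb (OB). They were found by gene symbol and make up 10 of the 24421 genes listed, and all 10 passed the minimum level for testing. The libraries came from 3 Sox9 KO and 3 control mice, 1 library per mouse, described in the methods as males. All 6 mice, controls included, had received AAV-GFAP-iCre-P2a-TurboRFP in the OB, a virus in which the GFAP promoter drives the Cre recombinase together with the red fluorescent protein TurboRFP. KO mice were Sox9fl/fl, in which Cre removes the floxed part of the astrocyte transcription factor Sox9. Control mice carried no floxed Sox9 and are named WT in the sample labels, C57BL/6J in the design and Sox9+/+ in the methods, and the strain label of both groups is C57BL/6. The age of these mice is not given in the labels, and the methods describe the study's mice as adult. The OBs were collected 4 weeks after injection, and cells were sorted by TurboRFP and not by a surface marker.

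BMPs are secreted ligands that join type I receptors, such as Bmpr1a and Bmpr1b, with type II receptors, such as Bmpr2, on the cell surface. The type I receptor then phosphorylates Smad1, Smad5 and Smad9, which enter the nucleus with Smad4 and activate transcription, and the Id genes are among their best known targets. Id proteins carry a helix-loop-helix domain without a DNA-binding part. They bind E proteins and so keep these from pairing with lineage-specific basic helix-loop-helix (bHLH) factors. In the nervous system, BMP signaling is known to favour the astrocyte fate, and Id proteins are known to hold back neuronal and oligodendrocyte differentiation.

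The promoters of the Id genes are shown because these genes are the transcriptional readout of the pathway and changed in the same direction here. Of the 10 genes, 7 had a promoter in the RefSeq table for GRCm38.p6, and Id1, Bmp2 and Bmp7 had none there. The 250 bases before the annotated start are written 5′ to 3′ on the strand of the gene, with the letters GGCGCC and CAGAC (or its complement GTCTG) in capitals, which are the letters that Smad proteins are known to bind. These windows are placed by the RefSeq start. Those of Id2, Id3, Bmpr1a and Bmpr2 and all 3 of Bmpr1b lie inside the GENCODE gene spans given further on.
Id2, chr12:25096093-25096342, minus strand: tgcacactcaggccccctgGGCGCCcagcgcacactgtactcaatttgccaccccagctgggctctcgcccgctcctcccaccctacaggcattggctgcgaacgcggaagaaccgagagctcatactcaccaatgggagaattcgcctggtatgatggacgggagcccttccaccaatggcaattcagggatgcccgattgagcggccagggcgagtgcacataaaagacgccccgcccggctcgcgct
Id3, chr4:136143572-136143821, plus strand: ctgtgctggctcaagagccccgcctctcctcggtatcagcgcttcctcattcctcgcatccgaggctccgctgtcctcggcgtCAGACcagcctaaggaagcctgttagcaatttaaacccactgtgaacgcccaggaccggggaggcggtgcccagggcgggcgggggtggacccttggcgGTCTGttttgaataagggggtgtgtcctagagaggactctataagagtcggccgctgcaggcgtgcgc
Id4, chr13:48260866-48261115, plus strand: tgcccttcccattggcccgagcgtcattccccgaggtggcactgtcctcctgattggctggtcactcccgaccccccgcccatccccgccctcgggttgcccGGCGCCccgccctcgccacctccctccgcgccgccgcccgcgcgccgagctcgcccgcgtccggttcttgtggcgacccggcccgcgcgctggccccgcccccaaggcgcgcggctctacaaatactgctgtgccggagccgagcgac
The Id2 and Id4 promoters each held GGCGCC once, with the first letter at −231 in Id2 and at −148 in Id4 relative to the start. The Id3 promoter held no GGCGCC and had CAGAC at −167 and GTCTG at −68. Over 32851 promoters of the same length, on both strands, GGCGCC was found in 9.59% and CAGAC in 42.2%. ACAAT and ACAAAG, letters that Sox proteins are known to bind and that share their first bases, were in none of these Id promoters and in 27.7% and 16.5% of all promoters. Among the receptors, the Bmpr1a and Bmpr2 promoters each held GGCGCC once, at −198 and at −105. The table holds 3 promoters of Bmpr1b, of which 2 overlap each other. ACAAT and ACAAAG were in all 3, but in the 2 that overlap they are the same bases, seen in both windows. CAGAC was in 2 of the 3, and none held GGCGCC. The shares of all promoters are per promoter and were not worked out for a gene with 3. These matches describe the letters of these windows and were not related to any measurement of binding.

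Each deposited value is the number of reads on a gene after division by the size factor of its library, called a normalized count here. The libraries held between 18242129 and 86906527 reads on genes, and 1 read was worth between 0.395 and 1.58 normalized counts. Sox9, the targeted gene, was at 5185, 6562 and 4921 normalized counts in control and at 52.6, 64.3 and 57.7 in KO, values being given here and in what follows in the order of replicates 1, 2 and 3. KO and control were compared with limma over the 18413 genes whose mean reached 1 normalized count, on log2(normalized count + 1). A gene is said to have risen or fallen where its Benjamini-Hochberg adjusted p was under 0.05 and its change at least 1.5-fold, and log2 fold changes (KO over control) are given with their standard error (SE). By this rule 51.0% of all tested genes differed, 28.8% lower and 22.2% higher in KO, so that a fall of a single gene was a common result in these libraries.

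The labels name the sorted cells OB astrocytes, and the levels of astrocyte markers differed between the groups. All 12 astrocyte markers fell, by a median of −3.97 on the log2 scale, and their summed level was 505037 to 561233 normalized counts in control and 36677 to 47264 in KO, led by the glutamate transporters Slc1a2 and Slc1a3. All 12 markers of microglia and macrophages rose, by a median of 1.99, and their sum went from between 181175 and 206748 to between 652635 and 769333, led by Csf1r. No marker of these 2 lists was at 0 in any library. Of 12 neuron markers 11 fell, with sums of 25766 to 32767 in control and 3734 to 6263 in KO, and all 6 oligodendrocyte precursor markers fell. Among the other lists, 7 of 8 oligodendrocyte, 7 of 8 olfactory ensheathing, 5 of 8 endothelial, 5 of 8 mural, 4 of 6 border macrophage, 2 of 6 ependymal and 1 of 8 fibroblast markers fell, and 2 border macrophage, 1 endothelial and 1 fibroblast marker rose. The mural marker Kcnj8 was at 0 in KO replicate 2. In bulk libraries, fewer cells of a type and less RNA per cell cannot be told apart. The part of these shifts in the results on the Id and BMP genes was not tested.

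Of the 10 genes, 6 fell in KO (Id1, Id2, Id3, Id4, Bmpr1b and Bmp7) and 0 rose, beside the 28.8% of all tested genes that fell. An adjusted p under 0.05 alone was reached by 8 of the 10, with Bmpr1a and Bmpr2 added, and by 61.3% of all tested genes. The 3 KO libraries were all below the 3 controls in 7 of the 10 genes (34.7% of all tested genes), all above them in 1 (32.4%), and overlapped them in 2, while 67.2% of all tested genes had groups that did not overlap. The median log2 fold change of the 10 genes was −1.61, and that of all tested genes was −0.07. The plot of the 10 genes by library shows these patterns.

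**Figure D1:**
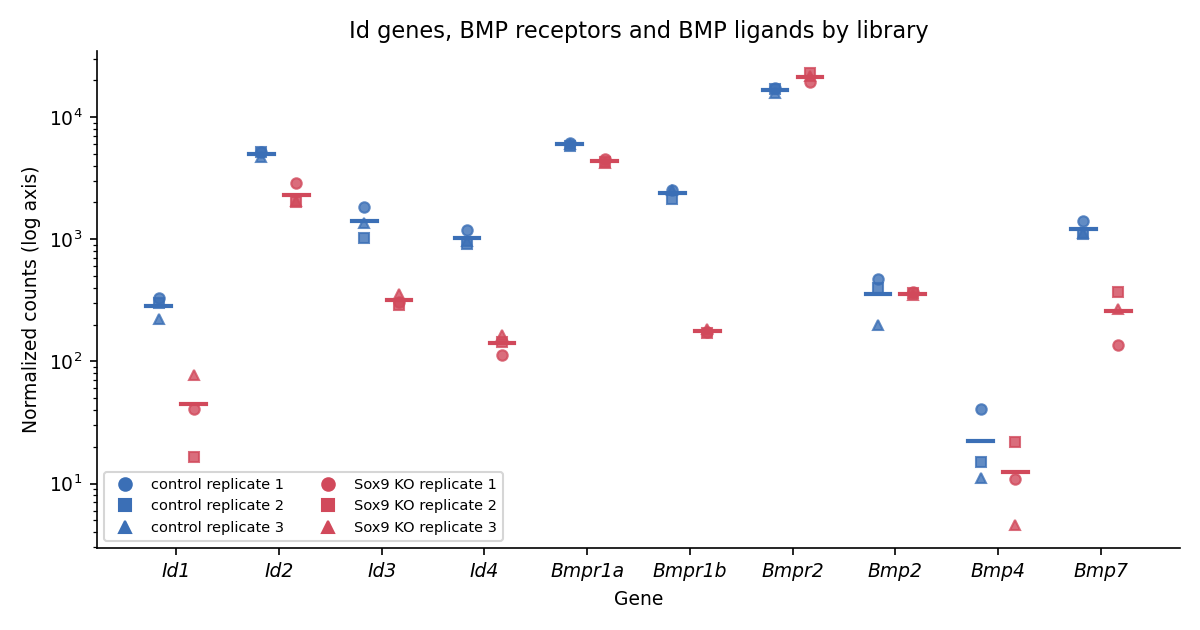
Normalized counts (log axis) of the 10 genes in each of the 3 control (blue) and 3 Sox9 KO (red) libraries, with circles, squares and triangles for replicates 1, 2 and 3 and bars for the group means. The KO points lie below all control points in Id1, Id2, Id3, Id4, Bmpr1a, Bmpr1b and Bmp7 and above them in Bmpr2, and the groups overlap in Bmp2 and Bmp4.

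All 4 Id genes fell in Sox9 KO, from 2.16-fold for Id2 to 7.28-fold for Id4 as the ratio of the group means. Id1, on chromosome 2 (152736251 to 152737410, plus strand, mm10), is a classical direct target of BMP Smads. It was at 327, 300.0 and 221 normalized counts in control and at 40.7, 16.6 and 77.5 in KO. The groups did not overlap, but the KO libraries differed widely among themselves, with the lowest in replicate 2 and the highest in replicate 3. With means of 283 ± 55.4 in control and 44.9 ± 30.7 in KO (means ± SD of 3 libraries here and for the other genes), the log2 fold change was −2.86 (SE 0.46, 95% interval −3.89 to −1.83, adjusted p = 0.00034), or −2.16 after quantile normalization.

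Id2 lies on chromosome 12 (25093799 to 25097140, minus strand) and is expressed in many cell types of the brain. Its control libraries were close together, at 5142, 5138 and 4729 normalized counts, and its KO libraries were at 2868, 2029 and 2052. KO replicate 1 was the highest of the KO libraries and still well below every control. The mean was 5003 ± 238 in control and 2316 ± 478 in KO, and the log2 fold change was −1.13 (SE 0.13, adjusted p = 3.3e-05), the smallest of the Id genes in this fit.

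Id3, on chromosome 4 (136143497 to 136145755, plus strand), encodes a protein that overlaps in function with Id1 in the developing forebrain. It was at 1825, 1021 and 1349 normalized counts in control and at 307, 292 and 357 in KO. Here the spread was in the controls, and the KO libraries were nearly level. The mean went from 1398 ± 405 to 318 ± 34.2, a log2 fold change of −2.10 (SE 0.19, adjusted p = 5.7e-06).

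Id4 lies on chromosome 13 (48261228 to 48266026, plus strand) and is known from neural stem cells and astrocytes. It was at 1197, 913 and 966 normalized counts in control and at 113, 145 and 164 in KO. Every KO library held less than every control by a wide gap, and both groups were tight. The mean went from 1025 ± 151 to 141 ± 25.7, a log2 fold change of −2.86 (SE 0.18, adjusted p = 3.3e-07), and 7.98% of all tested genes had a lower log2 fold change. The antisense gene A330033J07Rik overlaps exons of Id4. It was counted with at most 8 reads in any library, and the sources used here do not say whether the counting used the strand.

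**Figure D2:**
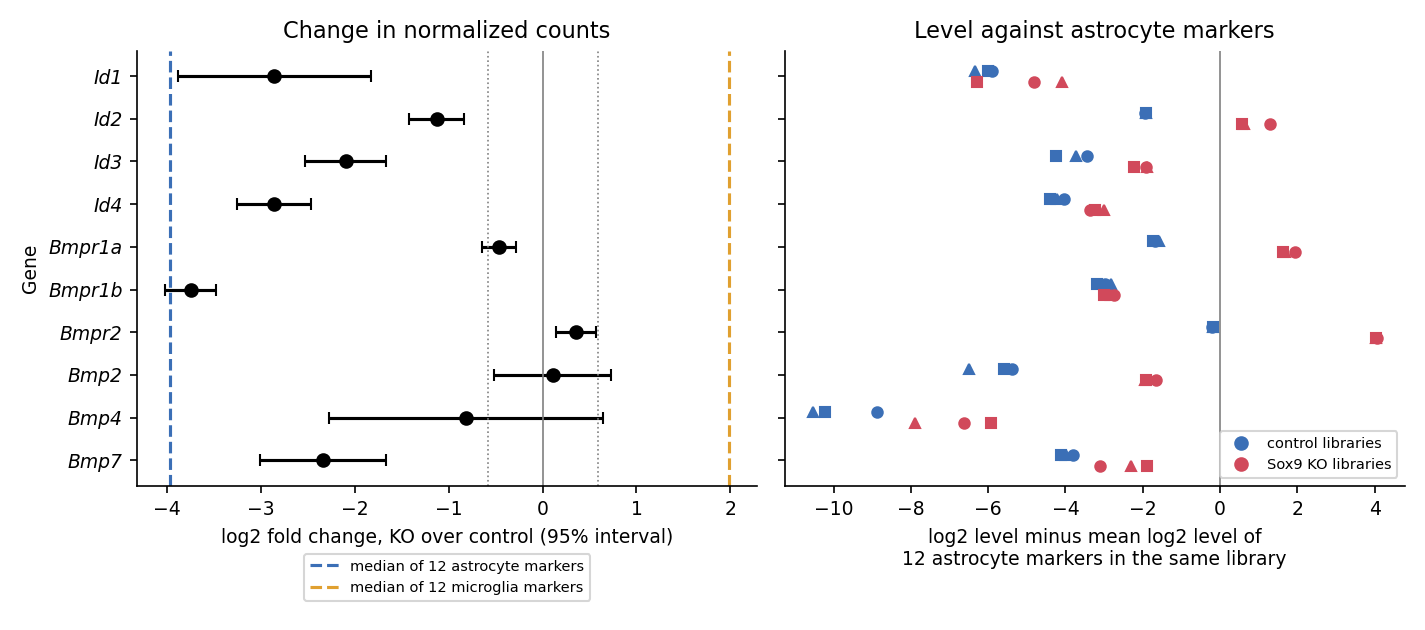
Left, log2 fold change of KO over control for each gene with its 95% interval, dotted lines at 1.5-fold in either direction and dashed lines at the medians of the astrocyte (−3.97) and microglia and macrophage (1.99) markers. Right, the log2 level of each gene in each library minus the mean log2 level of the 12 astrocyte markers in that library, with circles, squares and triangles for replicates 1, 2 and 3. Bmpr1b overlaps between the groups on the right, and Bmpr2 lies near 0 in control and near 4 in KO.

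The Id genes did not fall in equal measure. Id3 against Id4 rose within a library by 0.77 on the log2 scale, Id2 against Id3 by 0.97 and Id2 against Id4 by 1.73, and Id1 against Id2 dropped by 1.73. In each of these 4 pairs the 3 KO libraries were all on 1 side of the 3 controls, and the exact two-sided permutation p was 0.1, the smallest that 3 libraries against 3 can give, or 0.15 after adjustment over the 6 pairs. A single factor per library leaves such a ratio nearly as it is, but quantile normalization does not, and under it the log2 fold changes were −2.16 for Id1, −1.41 for Id2, −1.94 for Id3 and −2.54 for Id4. Id1 against Id3 differed by −0.76 (exact p = 0.4, adjusted p = 0.48) with groups that overlapped. Id1 against Id4 had a mean difference of 0.00 (exact p = 1, adjusted p = 1), with KO values spread from −3.06 to −1.07 around control values of −2.13 to −1.60.

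Levels of different genes were compared per kb of transcript. In control, Id2 was the highest of the 10 genes at 3939 ± 187 normalized counts per kb, and Id3 (1094 ± 317), Id1 (303 ± 59.3) and Id4 (266 ± 39.2) followed among the Id genes. The ranges of Id1 and Id4 overlapped in control, from 236 to 350 for Id1 and from 237 to 311 for Id4. In KO the order was kept, with Id2 at 1824 ± 376, Id3 at 249 ± 26.7, Id1 at 48.1 ± 32.8 and Id4 at 36.6 ± 6.69 normalized counts per kb, and the ranges of Id1 (17.8 to 83.0) and Id4 (29.4 to 42.6) again overlapped. Id2 made up 70.5% ± 4.46 of the summed Id level per kb in control and 84.2% ± 3.98 in KO, and the lowest KO library, at 80.0%, was above the highest control, at 74.9%. The share of Id3 went from 19.4% ± 4.28 to 11.8% ± 2.27, that of Id1 from 5.38% ± 0.78 to 2.25% ± 1.65 and that of Id4 from 4.74% ± 0.34 to 1.75% ± 0.53. The shares were chosen after seeing the data and are given without a test.

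**Figure D3:**
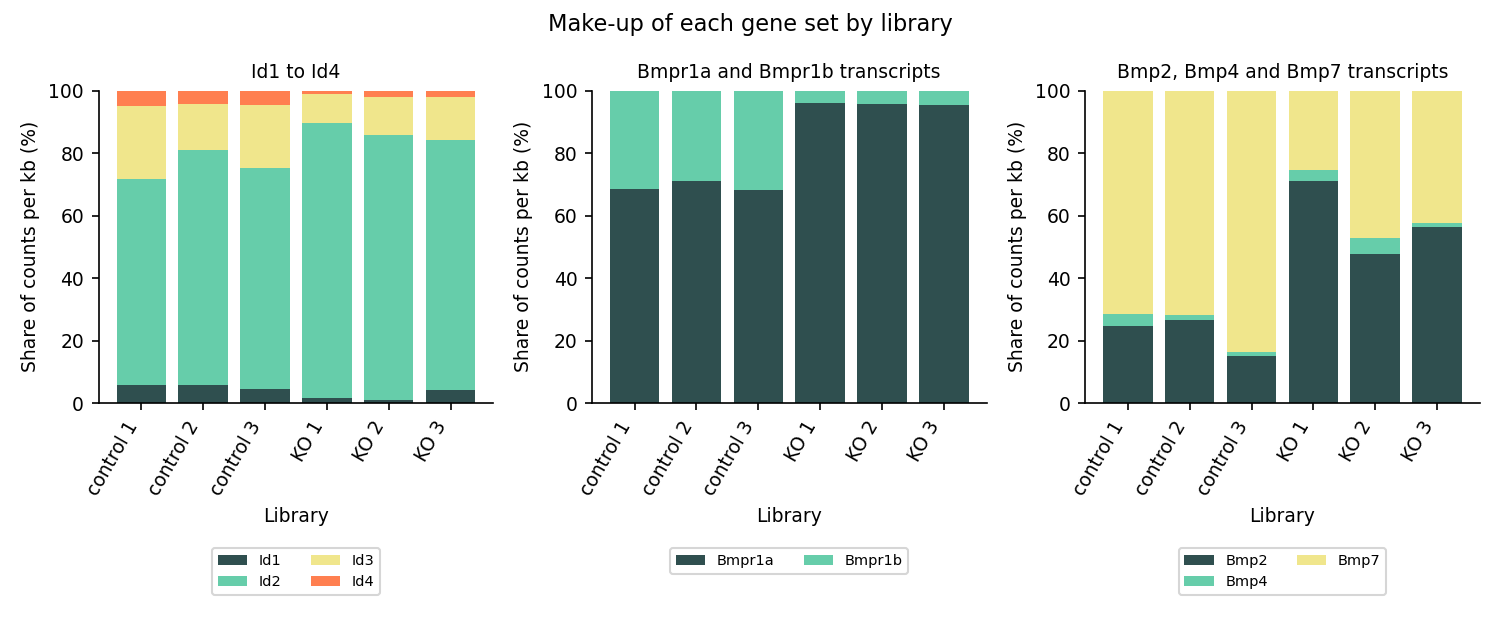
Share (%) of the summed normalized counts per kb that each gene took in each of the 6 libraries, for the Id genes, for Bmpr1a and Bmpr1b, and for Bmp2, Bmp4 and Bmp7. The part of Id2 is larger in the KO libraries (80.0% to 87.8%) than in the controls (66.0% to 74.9%), the part of Bmpr1b is smaller (4.12% to 4.64% against 29.0% to 31.9%) and the part of Bmp7 is smaller (25.3% to 47.3% against 71.5% to 83.5%).

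The receptor genes went 3 ways, with a steep fall of the type I receptor Bmpr1b, a shift below 1.5-fold of the type I receptor Bmpr1a and higher values of the type II receptor Bmpr2. Bmpr1b, on chromosome 3 (141837136 to 142169425, minus strand), was at 2534, 2132 and 2508 normalized counts in control and at 174, 170 and 185 in KO. Both groups were tight and the gap between them was the widest of the 10 genes. The mean went from 2391 ± 225 to 176 ± 8.10, a 13.6-fold difference and a log2 fold change of −3.75 (SE 0.12, adjusted p = 8.5e-09), and 3.04% of all tested genes had a lower log2 fold change.

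Bmpr1a lies on chromosome 14 (34410734 to 34503341, minus strand) and encodes the more broadly expressed BMP type I receptor. It was at 6158, 5811 and 5969 normalized counts in control and at 4500, 4281 and 4238 in KO. Every KO library was below every control, by a log2 fold change of −0.46 (SE 0.08, 95% interval −0.64 to −0.28, adjusted p = 0.00054). This change of 1.38-fold passed the p threshold but not the fold threshold. It passed both after quantile normalization (−0.82) and with equal library totals (−0.71, or −0.79 without the ribosomal RNA precursor Rn45s).

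Bmpr2, on chromosome 1 (59763400 to 59879014, plus strand), encodes the type II receptor whose kinase activates the type I receptor. It was at 17158, 16980 and 15811 normalized counts in control and at 19399, 22802 and 21818 in KO. Every KO library was above every control, with a log2 fold change of 0.36 (SE 0.10, 95% interval 0.14 to 0.57, adjusted p = 0.0080) that did not reach 1.5-fold. The direction of Bmpr2 depended on the scaling, since the log2 fold change was −0.29 after quantile normalization (adjusted p = 0.020) and 0.11 with the same total per library (adjusted p = 0.428).

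Per kb, Bmpr1a stood at 1004 ± 29.2 and Bmpr1b at 447 ± 42.0 normalized counts in control, and at 729 ± 23.6 and 33.0 ± 1.51 in KO. Bmpr1b therefore made up 31.4%, 29.0% and 31.9% of the level of these type I receptors in control, compared with 4.12%, 4.23% and 4.64% in KO. Bmpr2 was at 1291 ± 56.7 per kb in control and 1654 ± 136 in KO, the second highest mean of the 10 genes in both groups. In KO its range (1504 to 1768) overlapped that of Id2 (1597 to 2258), and Bmpr2 was above Id2 in KO replicates 2 and 3. In control, the ranges of Bmpr1a (976 to 1034) and Id3 (799 to 1428) overlapped, as did those of Bmpr2 (1226 to 1330) and Id3. Bmpr1b (399 to 474) came next in control, above Bmp7 (301 to 386), whose range overlapped that of Id1. In KO Bmpr1b (31.7 to 34.6) had dropped to the ninth place of the 10 by its mean. Its range lay within those of Id4 (29.4 to 42.6) and Id1 (17.8 to 83.0).

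Among the ligands Bmp7 fell, and no change was detectable in Bmp2 and Bmp4. Bmp7, on chromosome 2 (172868012 to 172940321, minus strand), encodes a secreted BMP with known roles in the eye, kidney and forebrain. It was at 1417, 1105 and 1127 normalized counts in control and at 135, 372 and 267 in KO. The groups were far apart, and KO replicate 1 was the lowest library. The mean went from 1216 ± 175 to 258 ± 119, a 4.71-fold difference and a log2 fold change of −2.34 (SE 0.30, adjusted p = 6.7e-05).

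Bmp2 lies on chromosome 2 (133552159 to 133562885, plus strand) and was at 476, 396 and 197 normalized counts in control and at 367, 365 and 346 in KO. The KO libraries were nearly level and lay inside the range of the controls, of which replicate 3 was the lowest. The log2 fold change was 0.11 (SE 0.28, 95% interval −0.51 to 0.73, adjusted p = 0.758), and the interval covers ratios of KO to control from 0.70 to 1.65. The sign of this value turned to −0.27 without control replicate 3.

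Bmp4, on chromosome 14 (46383520 to 46390669, minus strand), was the scarcest of the 10 genes. It was counted with 28, 22 and 7 reads in control and with 11, 55 and 3 reads in KO, or 40.9, 15.1 and 11.0 and 10.9, 21.7 and 4.56 normalized counts. The groups overlapped, and with the log2 fold change at −0.81 (SE 0.66, 95% interval −2.27 to 0.65, adjusted p = 0.307) neither a fall nor a rise could be detected at this depth. After quantile normalization it was −0.009. The gene Gm15217 lies opposite Bmp4 with overlapping exons and was listed at 0 in every library.

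Per kb, Bmp7 was at 331 ± 47.6 normalized counts in control, above Bmp2 (100 ± 40.5) and Bmp4 (10.8 ± 7.85), and this order was turned for Bmp7 (70.4 ± 32.4) and Bmp2 (101 ± 3.21) in KO. The KO ranges of Bmp7 (36.8 to 101) and Bmp2 (97.4 to 103) overlapped. In KO replicate 2 these genes were nearly level, at 101 for Bmp7 and 103 for Bmp2. The share of Bmp7 in the summed level of these ligands went from 75.6% ± 6.86 to 38.3% ± 11.5, and that of Bmp2 from 22.1% ± 6.19 to 58.5% ± 11.7. The summed level went from 443 ± 88.3 to 177 ± 34.8 normalized counts per kb.

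The level of the genes was also set against the 12 astrocyte markers in the same library, a comparison added after seeing the data. Bmpr1b stayed close to the markers, with a difference of 0.13 on the log2 scale between the groups, which overlapped (exact permutation p = 0.5), and 6 of the 12 markers fell more than it did. Id1 and Id4 fell less than 11 of the 12 markers, and Id2, Id3 and Bmp7 less than all 12. Most genes did so, since 90.8% of all tested genes had a higher log2 fold change than Slc1a3, the marker that fell least. Against the markers, Id4 was 1.02 higher in KO on the log2 scale, Bmp7 1.54, Id3 1.78 and Id2 2.75, with every KO library above every control (exact permutation p = 0.1 each, the smallest possible, or 0.122 after adjustment over 11 genes). Id1 was also 1.02 higher in mean, but its KO libraries overlapped the controls (exact permutation p = 0.3). Sox9 itself was 2.67 lower against the markers (log2 difference −2.67), with every KO library below every control. Thus the direction of the Id genes and Bmp7 was down in normalized counts and up against the astrocyte markers. The rise against the markers follows from their own fall, with log2 fold changes between −5.25 and −2.72. It is not particular to these genes, and the exact p does not make it so. Bmpr1b was also 0.13 higher, and 97.0% of all tested genes had a higher log2 fold change than Bmpr1b.

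The pathway around these genes was followed in 63 further genes, of which 57 had a sufficient level for the test. Of these, 23 fell (40.4%, beside 28.8% of all tested genes) and 9 rose (15.8%, beside 22.2%), with a median log2 fold change of −0.96. Groups without overlap were found in 28 of the 57 that were lower and 14 that were higher in KO, beside 34.7% and 32.4% of all tested genes. The plot of the pathway genes by list shows that 11 of the 23 falls were among the secreted antagonists and binding proteins, the largest list with 16 tested. Of the 9 rises, 5 were among the inhibitors that act inside the cell or at the membrane.

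**Figure D4:**
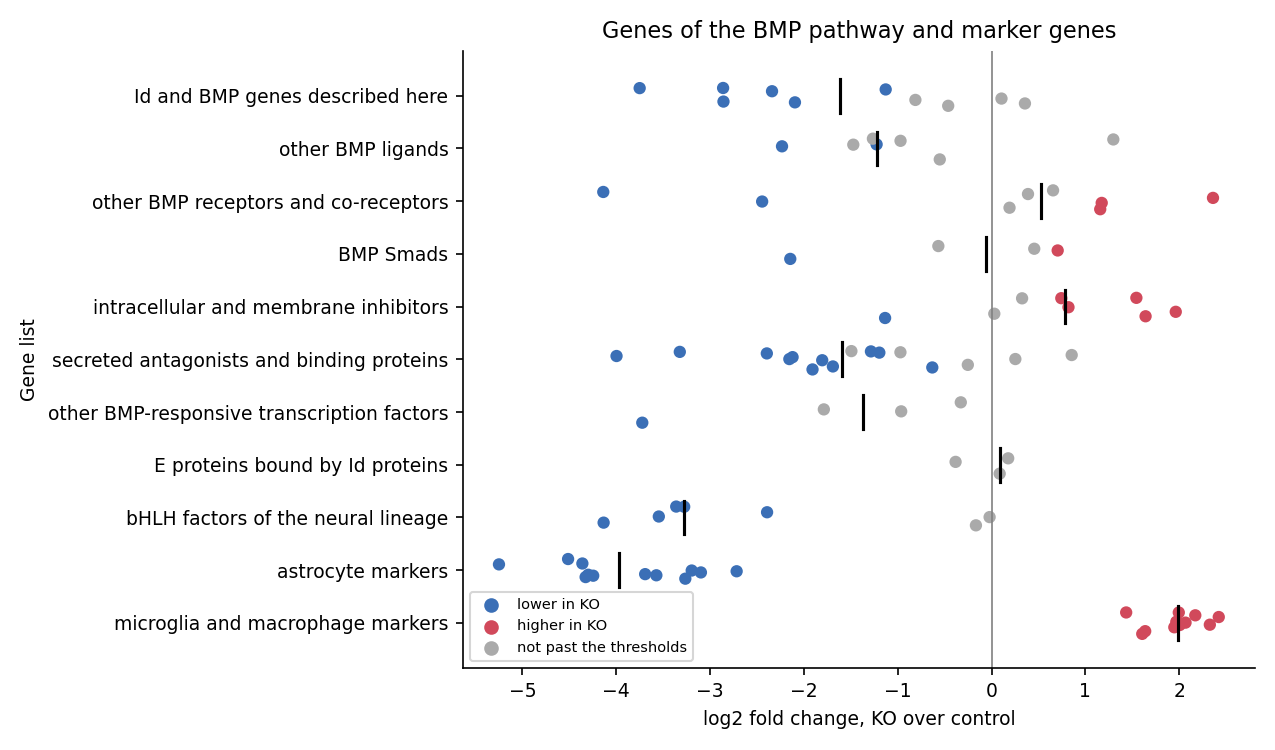
Log2 fold change (KO over control) of every tested gene in the pathway lists and in 2 marker lists, 1 row per list, with black bars at the list medians. Blue and red points passed the adjusted p of 0.05 and 1.5-fold as lower or higher in KO, and grey points did not. Of the 16 secreted antagonists and binding proteins 11 are blue, and of the 8 inhibitors 5 are red. Of all tested genes 28.8% were lower and 22.2% higher.

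Secreted antagonists and binding proteins, most of which hold BMPs in the extracellular space, were the largest of the pathway lists and had the most falls. Of 16 tested, 11 fell and 0 rose, beside 28.8% and 22.2% of all tested genes. The part that fell was larger in the list of bHLH factors, at 5 of 7. Chrdl1, a secreted BMP antagonist known from astrocytes, was the most abundant and went from 8936 ± 1246 to 559 ± 88.6 normalized counts (log2 fold change −4.00, SE 0.14, adjusted p = 1.2e-08). Bmper (−3.32), Nbl1 (−2.40), Fstl1 (−2.16) and Crim1 (−1.20) fell in every setting tried, and Twsg1 (−0.63) lost the fold threshold without control replicate 2, at −0.54. The summed level of the list was 12889 to 15640 normalized counts in control and 2852 to 3031 in KO. The number of falls was 7 after quantile normalization and also without control replicate 1 or without control replicate 2, and 12 with the same total per library. Nog, Chrd, Fst and Vwc2, named here after their values were seen, are low in these libraries and lost the call in between 3 and 7 of the alternatives, among them the removal of control replicate 1 and that of control replicate 2.

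Of the inhibitors inside the cell and at the membrane, 5 of 8 rose and 1 fell, beside 22.2% and 28.8% of all tested genes. Skil, a repressor of Smad-driven transcription, rose from 8856 ± 234 to 34600 ± 2780 normalized counts (log2 fold change 1.96, SE 0.09, adjusted p = 5.3e-08). The inhibitory Smad7 rose by 1.64 on the log2 scale, the pseudoreceptor Bambi by 1.54, the related repressor Ski by 0.82 and the ubiquitin ligase Smurf2 by 0.74. Ski and Smurf2 were under 1.5-fold after quantile normalization and with the same total per library, where 4 and 3 of the 8 genes rose. Tob1, an antiproliferative protein that restrains BMP Smads, fell by 1.13 on the log2 scale. The summed level of this list was 22603 to 23167 normalized counts in control and 51621 to 59972 in KO. All 12 markers of microglia and macrophages rose in the same libraries, by a median of 1.99. Which cells the higher counts of these inhibitors came from was not tested.

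The signal-transducing Smads were divided. Smad9 fell (−2.15, from 555 ± 39.9 to 127 ± 29.6 normalized counts, adjusted p = 6.0e-06) and Smad1 rose (0.70, from 1056 ± 31.7 to 1722 ± 61.1, adjusted p = 7.5e-05), although Smad1 was under 1.5-fold with the same total per library. Smad5 (−0.57) and the shared partner Smad4 (0.45) passed the p threshold without reaching 1.5-fold. The number of falls was 2 after quantile normalization, with the same total per library, without control replicate 3 and without KO replicate 2. Their summed level was 6507 to 7154 normalized counts in control and 6145 to 6520 in KO.

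Of 8 other receptors and co-receptors tested, 2 fell and 3 rose, beside 28.8% and 22.2% of all tested genes. The co-receptor Rgma fell from 4574 ± 960 to 256 ± 26.4 normalized counts (log2 fold change −4.14) and its binding partner Neo1 from 4096 ± 231 to 766 ± 197 (−2.45). The family member Rgmb rose (1.17), as did the type I receptor Acvrl1 (2.36, from 137 ± 43.1 to 695 ± 145) and the co-receptor Eng (1.16), both known from endothelial cells. Of the 8 endothelial markers in the same libraries 5 fell and 1 rose, and all 12 markers of microglia and macrophages rose. Which cells the higher Acvrl1 and Eng counts came from was not tested. Among 7 other ligands tested Bmp3 (−2.23) and Bmp6 (−1.23) fell, and neither passed the p threshold after quantile normalization (adjusted p = 0.055 and 0.052).

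Hey1, a target shared by the BMP and Notch pathways, fell from 4505 ± 434 to 363 ± 166 normalized counts (log2 fold change −3.72, SE 0.26, adjusted p = 6.5e-07), and was 1 of 4 tested genes in the list of other BMP-responsive transcription factors to pass. The E proteins, the partners that Id proteins bind, did not reach 1.5-fold. Tcf3 was at 719 ± 131 in control and 764 ± 143 in KO (log2 fold change 0.09) and Tcf12 at 2727 ± 233 and 3079 ± 182 (0.18). Tcf4 passed the p threshold (−0.38, adjusted p = 0.0037), and it was the 1 of these 3 genes that fell past 1.5-fold after quantile normalization and with the same total per library.

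Of 7 tested bHLH factors of the neural lineages, 5 fell in normalized counts, beside 28.8% of all tested genes. Among them were Olig2 (−4.14) and Olig1 (−3.55), which drive the oligodendrocyte lineage and are also in the list of oligodendrocyte precursor markers, the Notch target Hes5 (−3.36) and the neuronal Neurod1 (−2.39). Hes1 (−0.17, adjusted p = 0.554) and Hes6 (−0.02, adjusted p = 0.949) did not pass, although 1 gene of this list rose after quantile normalization. The fall of Neurod1 rests on low levels, from 39.7 ± 11.4 to 6.71 ± 2.13 normalized counts.

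The genes nearest in pattern to each Id gene were sought among 11925 genes with a mean of at least 100, by the root mean square distance between log2 profiles over the 6 libraries, each centred on its own mean. For Id4 these were Sema6d (0.090), Antxr1 (0.091) and Sox8 (0.099), and for Id3 they were Slc2a12, Npas2 and Fn3k (0.11 each). For Id2 they were Ppif (0.071), 2700097O09Rik (0.072) and Uqcr11 (0.082). For Id1 the nearest were farther away, Hspb8 (0.27), Rhod (0.33) and Kctd14 (0.33), alongside the spread of Id1 among the KO libraries. No neighbour was shared between Id genes in this search.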

How the data were processed

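Per the labels and the methods, the authors aligned reads to mm10 in STAR 2.5.0a, obtained gene counts through GenomicFeatures and GenomicAlignments and scaled these counts in DESeq2 1.20.0. FastQC and MultiQC are named for quality control. The sources used here name neither the gene annotation nor the strand setting. The deposited signal is 1 value per gene and library. It is named RPM, but within 0.01 read every value was a whole number of reads divided by 1 size factor per library, so it is called a normalized count here, and the reads were recovered for edgeR and DESeq2. Of the 24421 symbols, 27 are dates written by a spreadsheet and 4 rows carry a repeated symbol, and none of these is described.

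Genes with a mean of at least 1 (18413, with 6008 left out) were compared in R 4.3.3 with limma 3.58.1 on log2(value + 1), with a variance trend, no replicate block, two-sided p-values and Benjamini-Hochberg adjustment over all tested genes, a scale that makes changes of low genes look smaller. edgeR 4.0.16 and DESeq2 1.42.0 on the recovered reads, other pseudocounts, filters and scalings, a replicate block and the removal of each library were alternatives. The tests were checked on simulated data. Ratios within a library were compared by exact permutation (scipy 1.17.1). Each library is from 1 mouse, and the labels name no pairs. Same-numbered libraries did not deviate together over all tested genes, so the numbers were not taken as pairs.

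The members and the gene lists were chosen with earlier results of these data known, and the lists came from general knowledge. The genes named are the 10 members, Sox9, the genes of each pathway list that passed (the 6 of highest mean where more than 6 passed), of the astrocyte and microglia lists the 2 markers of highest mean, and the 3 genes nearest in pattern to each Id gene. A few genes that this rule would name are not reported here. Positions and transcript lengths are from GENCODE M21 (the longest transcript with a RefSeq match), and promoters are from RefSeq. The total reads limit the precision, and intervals of low genes cover few reads.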

Additional observations from a re-analysis of the deposited data

How the results depend on the processing

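The falls of Id1, Id2, Id3, Id4, Bmpr1b and Bmp7 held under every scaling, filter, pseudocount and tool tried and with each library left out, apart from the comparison with the astrocyte markers below, and edgeR and DESeq2 on the recovered reads each called these 6 members lower. Leaving out 1 library each time gave log2 fold changes of −3.37 to −2.29 for Id1, −1.29 to −1.04 for Id2, −2.30 to −1.88 for Id3, −2.98 to −2.71 for Id4, −0.49 to −0.44 for Bmpr1a, −3.83 to −3.71 for Bmpr1b, 0.31 to 0.42 for Bmpr2, −0.27 to 0.36 for Bmp2, −1.31 to −0.28 for Bmp4 and −2.66 to −1.93 for Bmp7. It gave 19 to 23 pathway genes lower and 9 to 10 higher. Bmpr1a passed 1.5-fold after quantile normalization (−0.82) and with the same total per library (−0.71, or −0.79 without Rn45s), and Bmpr2 turned to −0.29 after quantile normalization. Bmp2 turned to −0.14 with the same total, to −0.22 with the same total without Rn45s and to −0.27 without control replicate 3. Set against the astrocyte markers, the direction turned to a log2 difference of 1.02 for Id1, 2.75 for Id2, 1.78 for Id3, 1.02 for Id4, 3.42 for Bmpr1a, 0.13 for Bmpr1b, 3.07 for Bmp4 and 1.54 for Bmp7, which follows from the fall of the markers. The log2 ratio of Id1 to Id4, at 0.00, turned to −0.025 with a pseudocount of 0.1 and ranged from −0.39 to 0.60 with 1 library left out (−0.13 without control replicate 3, −0.20 without KO replicate 1 and −0.39 without KO replicate 3).

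Over all tested genes, 5299 were lower and 4090 higher, or 56.4% lower. Quantile normalization gave 4100 and 5380 (43.2% lower) and moved the median of all genes by 0.27, the same total gave 6191 and 2936 (67.8% lower, −0.23), and the same total without Rn45s gave 6597 and 2630 (71.5% lower, −0.31). edgeR called 5000 lower and 4340 higher and DESeq2 5100 and 3994. With the replicate number as a block there were 5227 and 4048, and no member changed its call (adjusted p = 0.019 for Bmpr2). The deviations of same-numbered libraries over all tested genes correlated at −0.051 to −0.013 over 3 pairs. Such values cannot show a shared batch that touched few genes, and the labels give no pairing beyond the number. The depth limits Bmp4 most, with 3 to 55 reads per library.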
